A study of Triticum aestivum with 10 samples.

Results

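The comparison described here is that of developing wheat seeds under drought at 72 hours after fertilization (HAF) with developing seeds under drought at 48 HAF. It rests on 4 Affymetrix wheat arrays, 2 for each time, chosen by their titles from the 10 arrays of the study. All seeds came from Redland, a winter wheat cultivar, grown in pots in a growth chamber after vernalization of the seedlings, and whole seeds were used as the tissue. The drought plants at 72 and at 48 HAF received no water from the start of the treatment, which the descriptions place at 24 HAF in one passage and at 48 HAF in another. The other 6 arrays were of seeds from watered control plants at 72, 48 and 24 HAF, 2 arrays for each time. The 2 arrays of a group are labelled biological replicates with no plant or pot named. A p-value here therefore reflects only how far these arrays lay apart, which may be technical. The smallest two-sided exact permutation p of 2 arrays against 2 is 0.333, and single genes were therefore tested with limma, which borrows information on the spread across all probe sets.

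In the first days after fertilization the endosperm of a cereal grain passes from a mass of nuclei without walls to a cellular tissue, which later fills with starch and storage protein. The prolamins (gliadins, glutenins and related avenin-like proteins) are the nitrogen store of the wheat grain and make up gluten. The same tissue also accumulates purothionins, which are small antimicrobial peptides, and inhibitors of insect and animal amylases and proteases.

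The log2 values of the arrays lay on a common scale, with medians of 4.14 and 4.21 at drought 72 HAF and of 4.10 and 4.08 at drought 48 HAF. Drought 72 HAF replicate 2 had a narrower spread of values than the other 3 drought arrays, with an SD over 61179 probe sets of 2.3 against 2.46 on drought 72 HAF replicate 1 and 2.44 and 2.48 on the drought 48 HAF arrays. The 2 drought 72 HAF arrays correlated at r = 0.951 across probe sets and the 2 drought 48 HAF arrays at 0.987. The closest array to drought 72 HAF replicate 1 was control 72 HAF replicate 2 (r = 0.996). Drought 72 HAF replicate 2 was closest to control 72 HAF replicate 1 (r = 0.959), and control 72 HAF replicate 1 was closest to control 48 HAF replicate 2 (r = 0.982). Control 24 HAF replicate 2 stood apart from all other arrays, with its closest correlation at 0.898, to drought 72 HAF replicate 2. These 2 arrays had the narrowest spreads of values in the study. The mean of the array's BioB control probe sets was 11.86 on control 24 HAF replicate 2 and 6.966 on drought 72 HAF replicate 2. On the other arrays it ran from 4.012 (drought 48 HAF replicate 2) to 6.705 (control 48 HAF replicate 2). Whether the narrow spread has a technical source was not tested. Profilin (LOC543315), listed among several pollen markers, read 12.46 and 12.58 at drought 72 HAF and 12.41 and 12.46 at drought 48 HAF. Its values alone do not give the amount of pollen RNA in the seeds. The precision of each value is limited by the number of arrays, and the signal over background was not measured.

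Several gliadins, purothionins and amylase inhibitors had higher signals in droughted seeds at 72 HAF than in droughted seeds at 48 HAF, by up to 159-fold among genes with a name. None of the 21 genes in the 4 lists that hold them passed in the limma fit of all 10 arrays, and 7 of the 21 passed in that of the 4 drought arrays alone. Both 72 HAF arrays lay above both 48 HAF arrays, with group means at least 2-fold apart, for 13 of these 21 genes, which make up the lists of gliadins, glutenins and avenin-like proteins, grain inhibitors, and thionins with other defence proteins, and for 0 of the 21 they lay below by that much. That share was 61.9%, beside 8.3% of all 771 annotated genes and 2.89% of all 61179 probe sets. The median difference of the 21 genes was 3.18 on the log2 scale, beside 0.056 for all probe sets. Each gene was represented by its probe set brightest over all arrays, a choice that could favour probe sets high at 72 HAF. With the mean over all probe sets of a gene, the gliadin median fell from 5.07 to 3.25. The glutenin and avenin-like median rose from 1.99 to 2.93, the inhibitor median went from 1.93 to 2.09, and the thionin median stayed at 4.83. In RNA from whole seeds, more cells of a type and more RNA per cell cannot be told apart.

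In the limma fit across all 10 arrays, which takes the spread from all 5 groups, 0 of 61179 probe sets (0%) reached an adjusted p under 0.05. In that fit 2470 probe sets had an unadjusted p under 0.05 (4.04%), 1840 of them higher (3.01%) and 630 lower (1.03%) at 72 HAF. Limited to the 4 drought arrays, limma called 91 probe sets (0.149%), of which 90 were higher (0.147%) and 1 lower (0.00163%) at 72 HAF. The fit across 10 arrays includes the spread between the 2 control 72 HAF arrays and between the 2 control 24 HAF arrays, which was wide for the genes described below. With the drought arrays and the control 48 HAF arrays together, a choice made after the data had been seen, 154 probe sets were called, 152 higher and 2 lower, and 89 of the 91 were among them. Below, the adjusted p of the 4 drought arrays is given as the 4-array p. For single genes that fit was not planned, and the planned test is the 10-array fit. The adjusted p of the 10-array fit was 0.953 for each gene named below from the 12 largest positive and 12 largest negative differences among annotated genes.

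Among gliadins, the monomeric prolamins of the grain, 5 of 5 genes lay higher on both 72 HAF arrays than on both 48 HAF arrays. So did 28.4% of all annotated genes and 23.3% of all probe sets. By at least 2-fold, 4 of the 5 lay higher, beside 8.3% of annotated genes and 2.89% of probe sets. The gamma-gliadin LOC543214 read 8.62 and 8.17 at drought 72 HAF and 1.80 and 1.70 at drought 48 HAF. The means were 8.39 ± 0.32 at 72 HAF and 1.75 ± 0.076 at 48 HAF (SD, n = 2 each), 6.64 apart on the log2 scale, or 100.0-fold (unadjusted 95% interval of the log2 difference in the 10-array fit 1.58 to 11.7, 4-array limma adjusted p = 0.00317). Its 3 probe sets disagreed in size: the dimmer 2 differed by 2.81 and 0.29 (4-array limma adjusted p = 0.0867 and 0.687), and the mean over the 3 was 3.25. The gliadin LOC543210 read 8.96 and 8.18 at 72 HAF and 2.89 and 3.26 at 48 HAF, a 45.1-fold difference (4-array limma adjusted p = 0.00865). The gliadin LOC543211 read 10.21 and 9.16 at 72 HAF and 4.73 and 4.51 at 48 HAF, a 33.5-fold difference (4-array limma adjusted p = 0.0157). All 3 were clear of the spread between the 2 drought arrays of a time. They were not clear of the spread between the 2 control 72 HAF arrays. Those read 1.60 and 8.73 for LOC543214, 3.11 and 8.94 for LOC543210, and 4.61 and 10.13 for LOC543211. The remaining members had low values throughout: LOC543212 read 3.87 and 2.82 at 72 HAF and 2.03 and 1.80 at 48 HAF, and LOC543385 read 2.72 and 2.14 at 72 HAF and 1.46 and 1.52 at 48 HAF. Neither of these passed (4-array limma adjusted p = 0.411 and 0.391). Values as low as those at 48 HAF may hold no signal of the gene, so the folds depend on a background that was not measured. Gliadin copies are alike in sequence, and several of these probe sets are of the array's kind that can bind related transcripts, so a signal may be shared between copies.

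The glutenin and avenin-like list held 3 genes. The low-molecular-weight glutenin LOC543213, a subunit of the polymers that give dough its strength, read 7.33 and 7.32 at drought 72 HAF and 5.36 and 5.30 at drought 48 HAF, 3.98-fold apart. The avenin-like gene LOC780582 read 8.58 and 6.30 at 72 HAF and 4.39 and 3.87 at 48 HAF, 9.91-fold apart and with a wide spread between the 72 HAF arrays. Neither passed in the 4-array fit (limma adjusted p = 0.226 and 0.313). The other avenin-like gene, LOC100125692, had 4 probe sets that disagreed. The brightest, which stands for the gene, read 9.77 and 8.59 at 72 HAF and 9.91 and 9.997 at 48 HAF, a difference of -0.77. The other 3 probe sets were higher at 72 HAF by 3.14 to 5.06, and 2 of them passed (4-array limma adjusted p = 0.0245 for both).

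Of 8 grain amylase and protease inhibitors, 6 lay higher on both 72 HAF arrays, 4 of them by at least 2-fold, and 1 lay lower. Of all annotated genes, 28.4% lay higher and 26.2% lower without overlap, and 8.3% lay higher by at least 2-fold. Of all probe sets, 23.3% lay higher and 21.2% lower without overlap, and 2.89% lay higher by at least 2-fold. The genes LOC543281 and LOC543286 carry the name ATI, used for amylase and trypsin inhibitors. LOC543281 read 11.46 and 10.76 at drought 72 HAF and 4.91 and 2.68 at drought 48 HAF, the largest difference of any annotated gene (7.31, 159-fold, interval 1.80 to 12.8, 4-array limma adjusted p = 0.0191). LOC543286 read 11.28 and 10.64 at 72 HAF and 5.48 and 3.50 at 48 HAF (88.8-fold, 4-array limma adjusted p = 0.0211), and each of its 3 probe sets lay at least 6.47 higher. In both genes drought 48 HAF replicate 1 read higher than replicate 2. The inhibitor wci (LOC542996) read 9.02 and 8.69 at 72 HAF and 5.64 and 5.23 at 48 HAF (10.7-fold, 4-array limma adjusted p = 0.0402). The monomeric amylase inhibitor WMAI-1 (LOC542981) read 8.08 and 6.29 at 72 HAF and 4.05 and 3.97 at 48 HAF (9.05-fold, 4-array limma adjusted p = 0.216). The 4 serpins, proteins that trap serine proteases, had small differences of -0.18 to 0.69, the highest in LOC100037548. The dimmer probe set of LOC100037548 read 3.24 and 3.44 at 72 HAF and 2.10 and 1.99 at 48 HAF. That was a difference of 1.30 (4-array limma adjusted p = 0.155).

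In the list of thionins and other defence proteins, 4 of 5 genes lay higher on both 72 HAF arrays, as did 28.4% of all annotated genes, and 3 of them by at least 2-fold, as did 8.3%. The purothionin THI1.1 read 11.81 and 10.14 at drought 72 HAF and 5.45 and 2.37 at drought 48 HAF, 134-fold apart (4-array limma adjusted p = 0.0724), with a wide spread within each time, and its second probe set lay 6.07 higher on the log2 scale (4-array limma adjusted p = 0.0407). THI1.2 read 10.27 and 8.73 at 72 HAF and 5.06 and 4.29 at 48 HAF, 28.4-fold apart (4-array limma adjusted p = 0.0438). THI1.3 (LOC543413) read 9.77 and 7.25 at 72 HAF and 3.40 and 2.38 at 48 HAF, 49.0-fold apart (4-array limma adjusted p = 0.0804), and its second probe set lay 5.57 higher on the log2 scale (4-array limma adjusted p = 0.0493). By their names the 3 are copies of 1 gene family on the related wheat genomes and need not be separate measurements. The lipid transfer protein LTP3 (LOC543095), of a family that carries lipids outside the cell, read 12.79 and 12.59 at 72 HAF and 12.25 and 12.04 at 48 HAF, a difference of 0.55. The pathogenesis-related gene PR5 read 2.24 and 3.35 at 72 HAF and 1.94 and 2.35 at 48 HAF, and its groups overlapped.

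**Figure D1:**
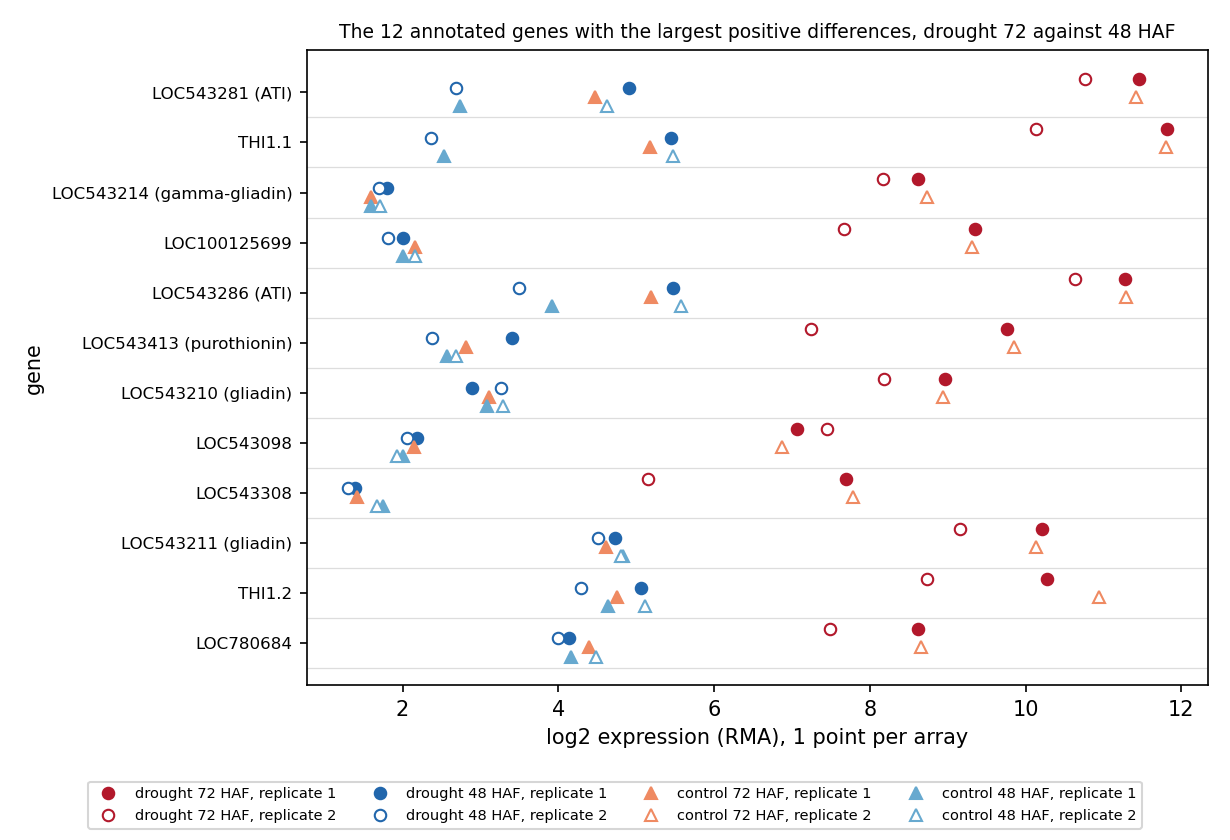
Log2 expression on each array (1 point per array, filled for replicate 1 and open for replicate 2) of the 12 annotated genes with the largest positive differences, in drought 72 HAF, drought 48 HAF, control 72 HAF and control 48 HAF seeds. For all 12 genes both drought 72 HAF arrays lie to the right of both drought 48 HAF arrays, and the control 72 HAF arrays fall apart, replicate 2 beside the drought 72 HAF arrays and replicate 1 beside the 48 HAF arrays.

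The other 4 genes among the 12 largest positive differences have only a number as their name and no role in the annotation used. LOC100125699 read 9.35 and 7.67 at drought 72 HAF and 2.004 and 1.82 at drought 48 HAF (4-array limma adjusted p = 0.0112). Its second probe set, brighter at 48 HAF, read 4.83 and 4.78 at 72 HAF and 4.16 and 4.10 at 48 HAF. That was a difference of 0.68 (4-array limma adjusted p = 0.629), and the mean over both probe sets differed by 3.64. LOC543098 read 7.06 and 7.45 at 72 HAF and 2.19 and 2.06 at 48 HAF (4-array limma adjusted p = 0.00576), the only 1 of the 12 that was higher on replicate 2 than on replicate 1 at 72 HAF. LOC543308 read 7.70 and 5.15 at 72 HAF and 1.40 and 1.3 at 48 HAF (4-array limma adjusted p = 0.0806), and LOC780684 read 8.61 and 7.49 at 72 HAF and 4.14 and 4.00 at 48 HAF (4-array limma adjusted p = 0.0424). The largest differences of all lay in probe sets with no gene symbol. Ta.23142.6.S1_x_at read 12.08 and 11.43 at 72 HAF and 2.28 and 2.54 at 48 HAF, and Ta.23142.1.S1_x_at read 12.32 and 11.74 at 72 HAF and 3.06 and 2.52 at 48 HAF (4-array limma adjusted p = 0.00181 for both). By their identifiers these 2 probe sets belong to 1 cluster of transcripts. Of the 90 probe sets called higher, 18 had a gene symbol, for 15 genes, and their differences ran from 1.99 to 9.34 on the log2 scale with a median of 4.83.

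A total of 110 probe sets (0.18%) were at least 16-fold higher without overlap. As a description of these probe sets, which were picked by the same values, their median difference from the 48 HAF mean was 5.55 on replicate 1 and 4.46 on replicate 2. Only 1 probe set (0.00163%) was at least 16-fold lower without overlap. Replicate 1 read above replicate 2 in 92 of the 110 and in 11 of the 12 annotated genes with the largest positive differences. At drought 48 HAF, replicate 1 read above replicate 2 in 93 of the 110, beside 30159 of all 61179 probe sets. The drought 48 HAF arrays thus also differed in these genes.

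**Figure D2:**
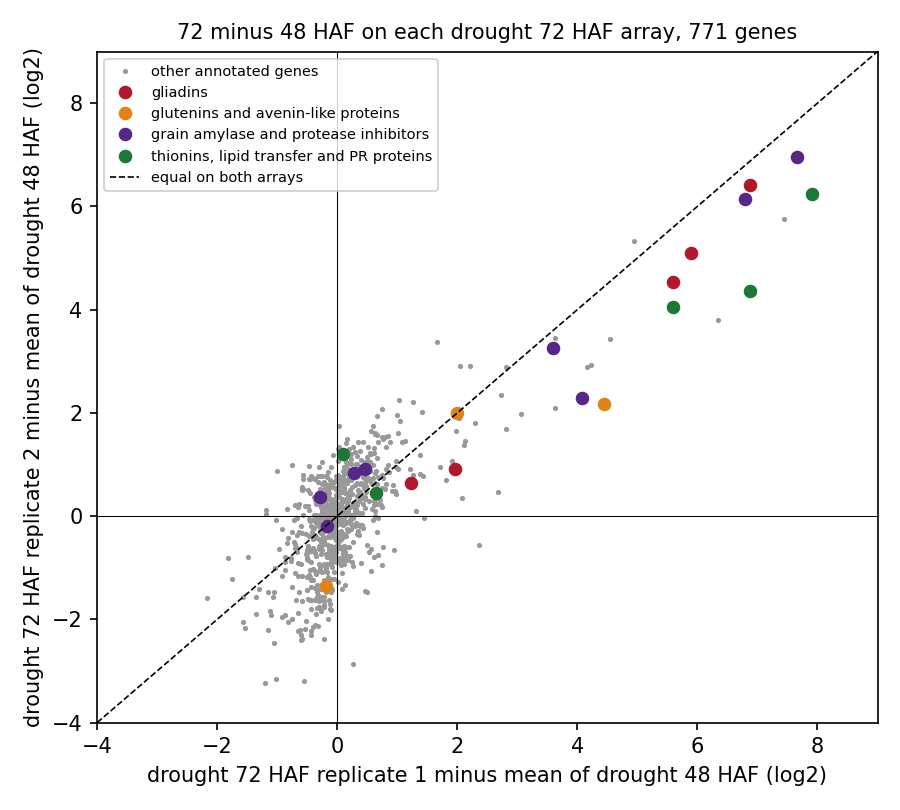
Difference of each drought 72 HAF array from the mean of the 2 drought 48 HAF arrays (log2), replicate 1 on the horizontal and replicate 2 on the vertical axis, for 771 annotated genes, with 4 gene lists in colour. Genes with large positive differences lie near or under the dashed line of equality, and most genes with negative ones lie far below it, being lower on replicate 2.

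In watered seeds the 2 control 72 HAF arrays disagreed on these genes. The gamma-gliadin LOC543214 read 1.60 and 8.73 at control 72 HAF and 1.59 and 1.71 at control 48 HAF. LOC543281 read 4.47 and 11.42 at control 72 HAF and 2.74 and 4.63 at control 48 HAF, and THI1.1 read 5.18 and 11.80 at control 72 HAF and 2.53 and 5.47 at control 48 HAF. Of the 90 probe sets called higher in droughted seeds, control 72 HAF replicate 2 lay at least 2-fold above the drought 48 HAF mean, and above both drought 48 HAF arrays, in 90, and control 72 HAF replicate 1 in 0. Of the 110 probe sets at least 16-fold higher, control 24 HAF replicate 2, the array that stood apart, was at least 2-fold above the drought 48 HAF mean in 108 and control 24 HAF replicate 1 in 7. Control 48 HAF replicate 1 was so in 1 and replicate 2 in 35. The share of all probe sets above that mean was not counted for these arrays. The 90 and the 110 were picked by their difference from the drought 48 HAF arrays, the same baseline. Control 24 HAF replicate 2 also had a narrow spread of values. On control 72 HAF replicate 2, 103 of the 110 lay at least 16-fold above that mean, so high signals for these genes were not confined to the drought arrays. What sets the 2 control 72 HAF arrays apart was not tested.

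The difference between the change in droughted and in watered seeds was tested directly. By limma 0 of 61179 probe sets (0%) were called for it, and 227 had an unadjusted p under 0.05 (0.371%). For LOC543214 the change was 3.13 larger in droughted seeds, with an unadjusted 95% interval of -4.03 to 10.3 (limma adjusted p = 1), so either direction lay within the interval. The change in watered seeds alone also gave no call (0%), with 187 probe sets at an unadjusted limma p under 0.05 (0.306%). Without overlap and at least 2-fold apart, 243 probe sets (0.397%) were higher and 106 (0.173%) lower at control 72 HAF.

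Of the 41 genes in the 12 other gene lists, 3 lay at least 2-fold higher without overlap (7.32%) and 2 lower (4.88%), beside 8.3% and 7% of all annotated genes and 2.89% and 4.79% of all probe sets, and the median difference was 0.065. None of the 41 passed limma in either fit. The antioxidant list held 2 of the 3 higher genes. PER1 (LOC543108), a peroxiredoxin known from the aleurone and embryo of barley, read 5.36 and 6.59 at drought 72 HAF and 4.36 and 4.31 at drought 48 HAF (difference 1.64, interval 0.55 to 2.73, 4-array limma adjusted p = 0.573), and its dimmer probe set read 0.53 lower at 72 HAF. The catalase CAT1, which breaks down hydrogen peroxide, read 7.14 and 7.50 at 72 HAF and 6.64 and 5.49 at 48 HAF (difference 1.25, 4-array limma adjusted p = 0.629). In watered seeds PER1 differed by 0.15 and CAT1 by -0.14 between the times, and the test of the difference passed for neither (limma adjusted p = 1). The glutathione transferase GSTZ1 (LOC543412) differed by -0.40.

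The third of these genes was LEA1 (LOC543476), of the late embryogenesis abundant proteins that protect cells during drying. It read 3.60 and 4.56 at drought 72 HAF and 2.88 and 3.05 at drought 48 HAF, a difference of 1.11 (4-array limma adjusted p = 0.629). The other members of its list, COR410 and Rab15 (LOC543293), both named for responses to cold or abscisic acid, differed by 0.20 and -0.21. The 2 Em genes, LEA proteins induced by abscisic acid in wheat embryos, differed by 0.0023 (LOC543497) and -0.13 (LOC543480). The 3 gibberellin 20-oxidases, enzymes of gibberellin synthesis, overlapped between the times, with LOC543325 at 4.90 and 6.17 at 72 HAF and 4.99 and 4.96 at 48 HAF. The small heat shock protein hsp16.9A (LOC543277) differed by 0.50, and FKBP70 (LOC543314), a protein-folding enzyme of the prolyl isomerase type, by -0.76, with 10.53 and 9.18 at 72 HAF and 10.57 and 10.66 at 48 HAF.

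Both starch genes overlapped between the times in droughted seeds. The waxy gene LOC543395, whose enzyme makes amylose, read 10.74 and 10.81 at drought 72 HAF and 10.58 and 10.84 at drought 48 HAF. The small subunit of ADP-glucose pyrophosphorylase (AGP-S, LOC543299), which makes the precursor of starch, read 11.20 and 9.60 at 72 HAF and 10.17 and 10.33 at 48 HAF, so replicate 1 lay above and replicate 2 below both 48 HAF arrays. All 5 photosynthesis genes were bright at both times, and 2 of 5 lay higher without overlap, beside 28.4% of all annotated genes. Their median difference was 0.47, and it was 0.93 without drought 48 HAF replicate 1 and 0.19 without drought 48 HAF replicate 2. The photosystem II protein PsbO (LOC543291) read 11.25 and 11.30 at 72 HAF and 10.77 and 10.23 at 48 HAF. The 6 tubulins differed by -0.13 to 0.35 and the 6 translation genes by -0.49 to 0.26. The proton pump ha1 (LOC543149) read 11.03 and 11.57 at 72 HAF and 10.88 and 10.53 at 48 HAF, a difference of 0.59.

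**Figure D3:**
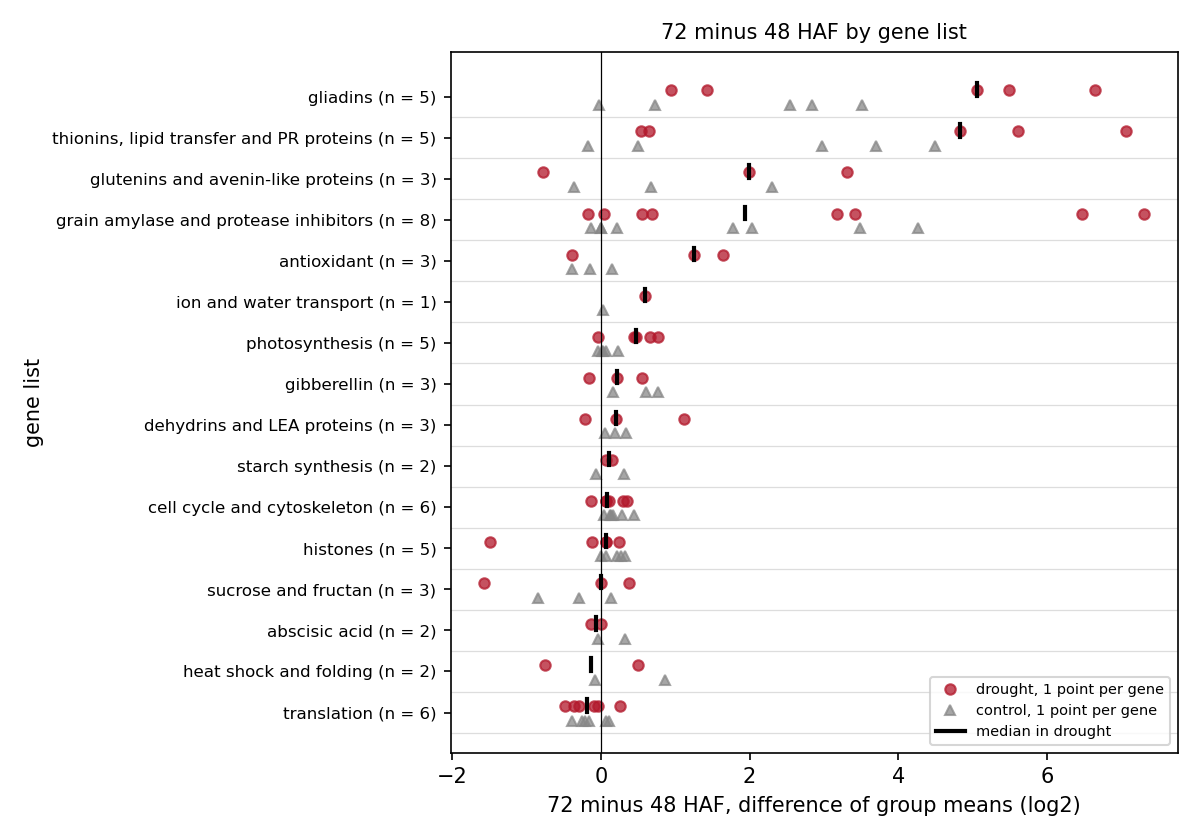
Difference between 72 and 48 HAF group means (log2) for each gene of 16 lists, in drought (circles) and control seeds (triangles), with the number of genes beside the list and a bar at the median in drought. The medians in drought of the gliadin list (5.07) and the thionin list (4.83) lie far to the right, and those of the 12 lists below the first 4 lie between -0.19 and 1.25.

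Which direction was more numerous depended on the fold limit. With no limit, 12975 probe sets (21.2%) lay lower and 14229 (23.3%) higher at drought 72 HAF without overlap. A total of 2928 probe sets (4.79%) lay at least 2-fold lower without overlap and 1771 (2.89%) higher, while at 4-fold or more 153 were lower and 453 higher. Of the 771 genes, 54 were at least 2-fold lower (7%) and 64 higher (8.3%). Those 2928 probe sets rested mainly on drought 72 HAF replicate 2, the array with the narrow spread. Of the 2928, 2874 were at least 2-fold lower on replicate 2 and 472 on replicate 1, with median differences of -1.99 and -0.55. With replicate 2 left out, 660 probe sets were lower and 1705 higher, and with replicate 1 left out, 7582 were lower and 5150 higher.

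**Figure D4:**
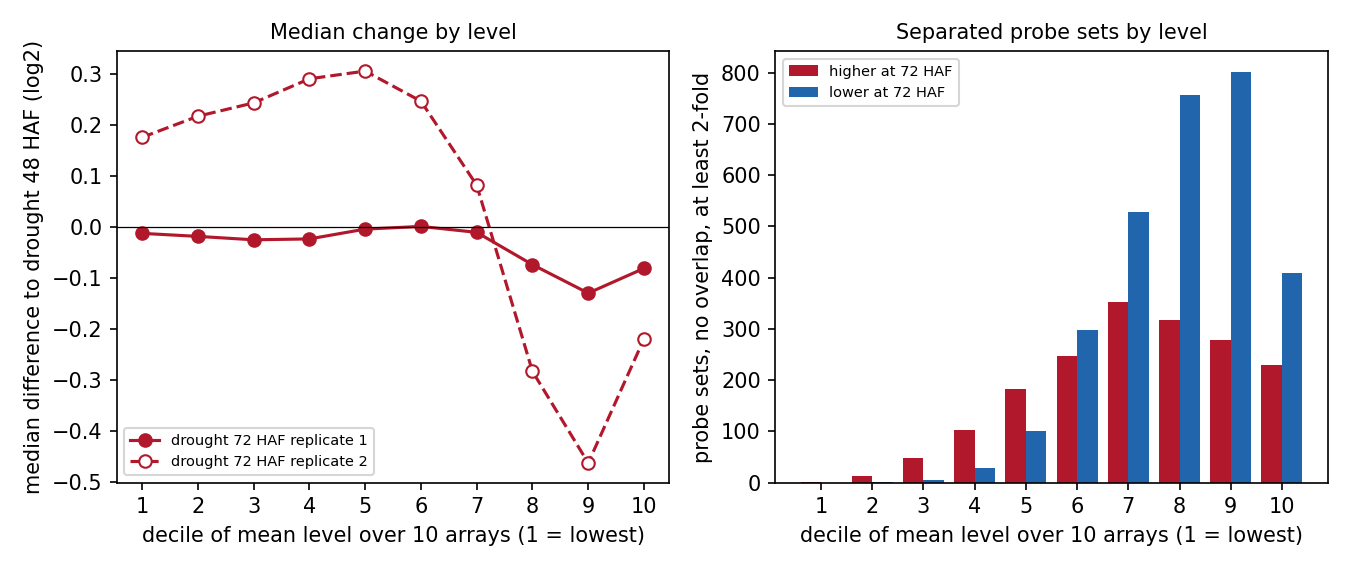
Left, median difference of each drought 72 HAF array from the drought 48 HAF mean (log2) by decile of the mean level over 10 arrays; right, number of probe sets without overlap and at least 2-fold higher or lower at 72 HAF in each decile. Replicate 1 stays between -0.13 and 0.0004, while replicate 2 runs from 0.31 in the fifth decile to -0.46 in the ninth, where the lower probe sets are most numerous (801).

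The shift of replicate 2 depended on the level of a probe set. In the fifth decile of probe sets by mean level its median difference from 48 HAF was 0.31, and in the ninth decile it was -0.46. On replicate 1 the same deciles gave -0.0048 and -0.13. Lower values of bright probe sets and higher values of dim ones on replicate 2 moved together with its narrower spread, and the part of that spread in each difference was not tested.

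The 1 probe set that passed as lower in the 4-array fit was Ta.7740.1.A1_at, without a gene symbol, which read 6.11 and 5.42 at drought 72 HAF and 9.10 and 9.51 at drought 48 HAF (difference -3.54, 4-array limma adjusted p = 0.0424). The unannotated probe set with the largest negative difference, TaAffx.128617.1.S1_x_at, read 9.44 and 3.82 at 72 HAF and 10.89 and 10.56 at 48 HAF, so its difference of -4.09 came mostly from replicate 2. None of the 12 annotated genes with the largest negative differences passed, at 4-array limma adjusted p between 0.422 and 0.629.

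Of these 12, only 1 has a readable name. The fructan exohydrolase 6-FEH (LOC780575), an enzyme that breaks down fructan, a sugar polymer stored in wheat stems and young grains, read 7.30 and 7.31 at drought 72 HAF and 8.35 and 9.40 at drought 48 HAF. That is a difference of -1.57 (interval -5.00 to 1.85, 4-array limma adjusted p = 0.549), of like size on both 72 HAF arrays, and its 3 probe sets ran from -1.57 to 0.37. The related gene 1-FEH (LOC543441) read 8.43 and 7.70 at 72 HAF and 8.10 and 8.04 at 48 HAF, with overlap. In watered seeds 6-FEH read 9.10 and 7.26 at 72 HAF and 9.62 and 8.45 at 48 HAF.

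The histone variant H2A-2 (LOC732712) lay just outside the 12, at 6.66 and 7.21 at drought 72 HAF and 8.04 and 8.80 at drought 48 HAF (difference -1.49, 4-array limma adjusted p = 0.584). Histones package DNA, and the other 4 of the list differed by -0.12 to 0.24. Among genes known by a number, LOC543016 had the largest negative difference, with 4.54 and 2.52 at 72 HAF and 5.86 and 5.64 at 48 HAF, larger on replicate 2. LOC542796 read 5.47 and 6.06 at 72 HAF and 6.71 and 8.57 at 48 HAF, 1 of the 2 genes of the 12 in which replicate 1 was the lower 72 HAF array. LOC780646 read 5.11 and 2.97 at 72 HAF and 5.83 and 6.42 at 48 HAF, and LOC100049051 read 6.90 and 4.27 at 72 HAF and 7.45 and 7.47 at 48 HAF. In both genes, a second probe set read slightly higher at 72 HAF (0.23 and 0.52). The other 7 of the 12 differed by -1.86 in LOC778385 to -1.50 in LOC543056.

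**Figure D5:**
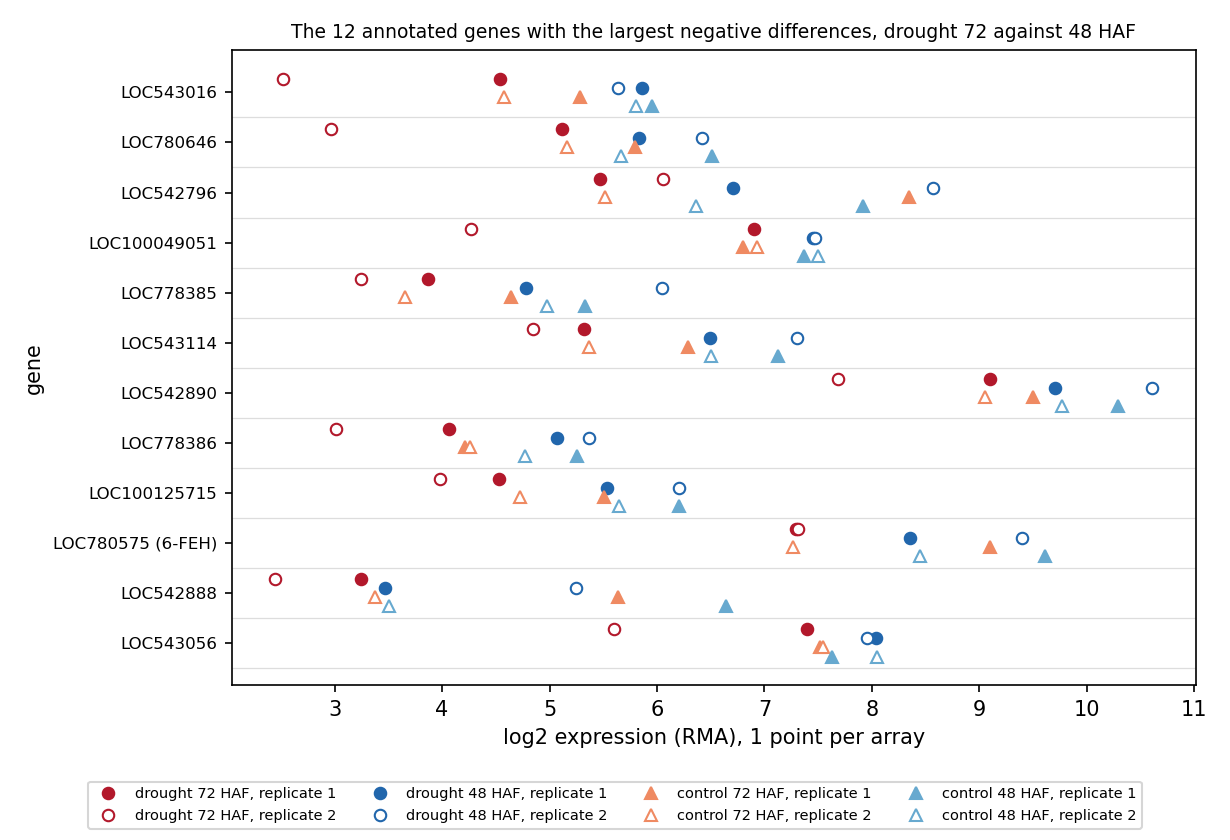
Log2 expression on each array (1 point per array, filled for replicate 1 and open for replicate 2) of the 12 annotated genes with the largest negative differences, in drought 72 HAF, drought 48 HAF, control 72 HAF and control 48 HAF seeds. In 10 of the 12 the lowest of the 4 drought points is drought 72 HAF replicate 2.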

How the data were processed

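RNA of whole developing seeds was hybridised by the authors to Affymetrix wheat arrays, 1 per sample. The authors deposited log2 expression values, made with RMA in affy according to the submitters' processing notes, which give no version. RMA corrects background, gives arrays a common distribution of probe values and summarises probe sets, so dim values are compressed. The deposited values of probe sets still differed in spread. Their SD ran from 1.997 on control 24 HAF replicate 2 to 2.483 on drought 48 HAF replicate 2. The values were used as deposited. Of 61290 probe sets, 111 controls were left out and 61179 tested, without a filter. A single gene symbol was given for 1273 probe sets, several for 0 and none for 59906. The symbols stood for 771 genes, 770 matched in the RefSeq gene table (IWGSC CS RefSeq v2.1) and 102 with a readable name. The brightest probe set by mean over all arrays stood for a gene.

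Times were compared with limma (version 3.58.1, R 4.3.3) by a mean for each group over 10 arrays and variances moderated by intensity. It had 5 residual and 3.59 prior degrees of freedom and Benjamini-Hochberg adjustment over all probe sets at 0.05. The fit of the 4 drought arrays, a listed alternative, had 2 residual and 5.41 prior degrees of freedom. The fitting code was run on simulated data with known changes. Groups were called separate when their arrays did not overlap. Genes named were the 12 largest positive and 12 largest negative differences without overlap, up to 4 members of each list by size of difference, and 2 unnamed probe sets each way; other genes were chosen after their values were seen. Of 18 lists, 16 had a gene and those of transcription factors and of proteases had none. The comparison and lists were chosen with earlier results of these data known. Other fits, scalings, a filter, a replicate block and leaving out arrays were tried.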

Additional observations from a re-analysis of the deposited data

Results flagged for a closer look

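The beta-tubulin tubb3 (LOC543473), a subunit of microtubules, differed between the times in opposite directions in droughted and watered seeds on all arrays. It read 11.65 and 11.53 at drought 72 HAF and 11.71 and 11.74 at drought 48 HAF, and 11.68 and 11.75 at control 72 HAF and 11.59 and 11.57 at control 48 HAF. The change in droughted seeds minus that in watered seeds was -0.27, with an unadjusted 95% interval of -0.89 to 0.35 (limma adjusted p = 1), so the difference did not pass its test.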

How the results depend on the processing

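The count of 0 probe sets called at drought 72 against 48 HAF held in 8 other fits of all arrays or subsets (8 arrays of 48 and 72 HAF, no trend, robust variances, array weights, second quantile scaling, median and spread scaling, filter on dim probe sets, replicate block). It also held without any 1 of the 4 drought arrays and, as choices made after the data had been seen, without control 72 HAF replicate 1 or control 24 HAF replicate 2 (719 to 8033 unadjusted limma p under 0.05 in these fits), but not in the fit of the 4 drought arrays (91) or without the control 24 and 72 HAF groups (154). With the replicate number as a block, 0 passed in each of the 3 contrasts, and the replicate differences of the 2 drought times correlated at -0.0195, and those of the 2 control times at 0.188, so the block was not taken as a pairing. Between drought and control they correlated at -0.519 at 72 HAF and -0.489 at 48 HAF. With the numbers crossed between treatments over 8 arrays, a choice made after the data had been seen, limma called 0 for the difference between treatments (1465 at an unadjusted p under 0.05). For control 72 against 48 HAF, leaving out 1 array gave 0 to 2 calls, the 2 without control 48 HAF replicate 2, and for the difference between treatments 0. The 4699 probe sets without overlap and at least 2-fold apart became 27204 with no fold limit, 606 at 4-fold, and 2365 to 12732 without 1 array (2365 without drought 72 HAF replicate 2, 12732 without replicate 1). The share of higher among them was 37.7%, 42.7% after a second quantile scaling, 32.9% after spread scaling, 74.8% at 4-fold and 72.1% without drought 72 HAF replicate 2.

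Of 918 recomputed gene values, 25 changed sign. Leaving out 1 array (drought 72 HAF replicate 2 where not said otherwise) gave -0.078 to 1.19 for LOC543325, -0.020 to 0.769 for LOC543415, -0.17 to 0.61 for LOC543327, -0.14 to 0.55 for COR410 and -0.698 to 0.12 for LOC543485. It gave -0.65 to 0.94 for LOC543299 (drought 72 HAF replicate 1), and by drought 48 HAF replicate 1 -0.011 to 0.22 for TUBA, -0.067 to 0.195 for LOC543395 and -0.315 to 0.051 for LOC543480. By drought 48 HAF replicate 2 it gave -0.314 to 0.071 for LOC732714 and -0.343 to 0.0091 for LOC543326. By drought 72 HAF replicate 2 or a drought 48 HAF array it gave -0.18 to 0.31 for LOC543184, -0.19 to 0.19 for LOC543497 and -0.37 to 0.37 for LOC543441. A second quantile scaling turned LOC543497 (-0.098) and LOC543441 (0.18), and spread scaling turned LOC543497 (-0.11), LOC543441 (0.0039) and LOC732714 (0.033). With the mean over probe sets, LOC543184 (-0.30), LOC543497 (-0.082) and the avenin-like LOC100125692 (2.93, against -0.77) turned. The cause was not tested. Of 128 list medians, 27 moved by more than the replicate SD; with the mean over probe sets the gliadin median was 3.25 and the thionin median 4.83.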

Other observations

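Outside the lists, 3 genes with a readable name lay about 2-fold or more apart without overlap between the drought times, picked after their values were seen. Of the 81 readable genes outside the first 4 lists, 4.94% lay at least 2-fold higher and 4.94% lower without overlap. These 81 include the 41 genes of the other 12 lists, already described, of which 7.32% lay higher and 4.88% lower. The shares of all 771 annotated genes were 8.3% and 7%, so such genes were no more common among the 81. The share among readable genes outside all lists was not counted. None of the 81 passed limma in either fit. PIMT (LOC543193), an enzyme that repairs aged proteins, read 5.02 and 5.57 at drought 72 HAF and 3.99 and 4.30 at drought 48 HAF, and 4.65 and 4.44 at control 72 HAF and 3.65 and 3.78 at control 48 HAF. The groups of both treatments were thus apart in the same direction for PIMT, by 1.15 in droughted and 0.84 in watered seeds on the log2 scale. The phytochelatin synthase PCS1 (LOC542834), which makes metal-binding peptides, read 6.95 and 5.29 at drought 72 HAF and 7.40 and 7.57 at drought 48 HAF. The calcium-permeable channel TPC1 (LOC543074) read 6.63 and 5.20 at drought 72 HAF and 6.97 and 6.97 at drought 48 HAF. For both of these drought 72 HAF replicate 2 was much the lower array.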
